A study of Mus musculus with 14 samples.

Results

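DNA replication and S-phase genes were followed in mammary epithelial cells (MECs) of Usp22-overexpressing mice and their WT littermates, to describe how far their transcripts differed between litters and between littermates of the 2 genotypes. The set was a named list of 41 genes, and all 41 were found by symbol among the 16124 genes of the deposited table. RNA-seq had been run on MECs of females aged 3.5 months, 7 WT and 7 Usp22 OE/OE, with 1 library per mouse, and each OE/OE mouse had a WT littermate in the series. The pairs carried the numbers 1, 3, 4, 5, 6, 7 and 8. The OE/OE mice were homozygous for a Rosa26KI-Usp22 allele, in which a FLAG- and MYC-tagged mouse Usp22 cDNA at the ROSA26 locus is driven by the CAGGS promoter once a STOP cassette has been removed by Zp3-Cre, a Cre of the female germ line. Overexpression was therefore ubiquitous, and stromal and endocrine tissues of these mice carried the allele too. The WT mice lacked it. The cells came from mammary organoids pelleted by brief spins, a preparation that is mostly epithelial but not sorted, and the stage of the estrous cycle was not given in the sources used here.

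Replication starts with licensing. ORC, CDC6 and CDT1 load the ring-shaped MCM helicase onto origins before S phase, and CDC45, the GINS complex and MCM10 then turn the loaded ring into a moving helicase. The primase and polymerases alpha, delta and epsilon copy the strands, the RFC complex loads the PCNA clamp, FEN1 and LIG1 finish Okazaki fragments, and RRM1, RRM2, TYMS, TK1 and DUT supply nucleotides. Most of these genes are transcribed from late in the gap before S phase into S phase, under E2F transcription factors, and in a tissue where few cells divide their transcript levels are commonly read as a measure of cycling cells. In the adult mammary gland the share of cycling cells changes with the estrous cycle, since progesterone drives luminal cells to divide through secreted signals such as RANKL, the product of Tnfsf11.

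The promoters of the genes were described first. Whether their motifs bear on how the members varied was not tested. RefSeq promoter sequences (GRCm38.p6, 250 bases before to 50 bases after the annotated start) were matched to 34 of the 41 genes; Gins1, Gins2, Gins4, Mcm4, Pole, Prim2 and Tipin had no entry. An E2F motif, searched as TTTCGCGC or TTTGGCGC on both strands, was found for 12 of the 34 genes, or 35.3%, and for 198 of the 11716 genes of the table with a promoter entry, or 1.69%. These 12 were Mcm3, Mcm5, Mcm6, Mcm7, Orc1, Cdt1, Pola1, Pole2, Rfc3, Lig1, Uhrf1 and Dnmt1. The E2F motif was also found for 4 of 41 genes (9.76%) on a list of other replication genes and for 1 of 22 mitosis genes (4.55%). The letters TTTGAA, the core of the cell-cycle element called CHR, were found for 5 of 34 members (14.7%), for 16 of 22 mitosis genes (72.7%) and for 14.9% of all genes. The letters CCAAT were found for 55.9% of the members and 42.3% of all genes. A match is only a run of letters in this window. Other spellings of the E2F motif and sequence outside the window were not searched, so a gene without a match can still have an E2F site. The 5 promoters below with a match belong to the 3 matched genes whose levels varied most between libraries (Uhrf1, Mcm5, Pole2) and the 2 that varied least (Cdt1, Pola1), and Tk1, the member that varied most of all, had no match. Capitals mark the E2F matches. In Mcm5 the matches on the 2 strands overlap and form 1 longer run.
Uhrf1, chr17:56304063-56304362, plus strand: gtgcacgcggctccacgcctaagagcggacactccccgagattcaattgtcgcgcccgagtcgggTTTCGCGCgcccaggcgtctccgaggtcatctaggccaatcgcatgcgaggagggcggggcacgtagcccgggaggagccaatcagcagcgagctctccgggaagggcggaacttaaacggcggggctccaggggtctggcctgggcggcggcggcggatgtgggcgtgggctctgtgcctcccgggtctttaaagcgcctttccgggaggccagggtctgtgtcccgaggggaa
Mcm5, chr8:75109259-75109558, plus strand: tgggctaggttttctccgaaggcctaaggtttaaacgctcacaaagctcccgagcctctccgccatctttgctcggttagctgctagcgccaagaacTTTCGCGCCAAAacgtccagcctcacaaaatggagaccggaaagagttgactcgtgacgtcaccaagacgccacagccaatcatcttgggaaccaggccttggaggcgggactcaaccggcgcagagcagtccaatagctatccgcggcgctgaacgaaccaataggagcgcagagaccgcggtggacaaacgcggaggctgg
Pole2, chr12:69228141-69228440, minus strand: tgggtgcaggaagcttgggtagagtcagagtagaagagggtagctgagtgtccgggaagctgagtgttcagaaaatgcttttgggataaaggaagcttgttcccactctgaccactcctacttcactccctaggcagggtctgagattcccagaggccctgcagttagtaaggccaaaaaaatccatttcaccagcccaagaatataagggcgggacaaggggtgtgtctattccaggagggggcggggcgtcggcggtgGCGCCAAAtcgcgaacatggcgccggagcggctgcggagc
Cdt1, chr8:122567765-122568064, plus strand: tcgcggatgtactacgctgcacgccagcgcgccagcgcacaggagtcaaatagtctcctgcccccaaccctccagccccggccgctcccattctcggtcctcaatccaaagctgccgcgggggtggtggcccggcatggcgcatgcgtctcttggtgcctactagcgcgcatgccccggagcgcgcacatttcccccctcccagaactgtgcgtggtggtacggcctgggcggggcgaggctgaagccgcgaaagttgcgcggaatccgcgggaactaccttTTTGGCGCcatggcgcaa
Pola1, chrX:93632106-93632405, minus strand: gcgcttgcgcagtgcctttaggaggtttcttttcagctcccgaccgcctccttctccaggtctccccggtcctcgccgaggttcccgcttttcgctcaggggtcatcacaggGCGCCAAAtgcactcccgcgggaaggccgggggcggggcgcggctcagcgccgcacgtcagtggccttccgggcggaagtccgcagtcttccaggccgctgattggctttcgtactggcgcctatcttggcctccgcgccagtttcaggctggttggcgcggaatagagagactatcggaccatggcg
Tk1, chr11:117825965-117826264, minus strand: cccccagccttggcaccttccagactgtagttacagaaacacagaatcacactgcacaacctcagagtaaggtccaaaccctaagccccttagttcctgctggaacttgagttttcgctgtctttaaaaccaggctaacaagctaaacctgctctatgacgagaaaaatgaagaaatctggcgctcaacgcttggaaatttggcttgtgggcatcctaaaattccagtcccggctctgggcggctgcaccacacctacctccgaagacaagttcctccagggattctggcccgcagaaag

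The first base of the match lay at position -185 from the start site in Uhrf1, at -153 and -149 in Mcm5, at 11 in Pole2, at 33 in Cdt1 and at -138 in Pola1, where negative positions are before the start. The ratio of the highest to the lowest library had a median of 4.37 over the 12 genes with a match (lowest 2.41, highest 12.4) and of 4.48 over the 22 without (lowest 2.15, highest 28.5).

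Across the series, 20125106 to 41835978 fragments per library were counted on genes, with the WT mice of pairs 1 and 8 the shallowest. The normalized counts of Usp22 itself were 3500 to 5380 in WT libraries and 74948 to 144288 in OE/OE libraries, so no library went against its label. The OE/OE mouse of pair 4 had the lowest of the OE/OE values, 74948. The same mouse stood apart in its S-phase levels and in other transcripts, described below. The tests of genotype and litter are given with and without pair 4, and since that pair was singled out by the levels under test, values without it are a description of the other 6 pairs and not an independent test. The 10 pan-epithelial markers (Epcam and keratins among them) summed to between 389576 and 700857 normalized counts. Stromal transcripts were present as well, with summed fibroblast markers between 61612 and 202803 and summed endothelial markers between 14859 and 94997.

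The level of the members varied both between litters and between littermates. In 4 of the 7 pairs at least 33 of the 41 members were lower in the OE/OE littermate. Taken as the mean over the 41 genes of log2(normalized count + 1), their level ranged from 7.71 to 8.85 in WT and from 7.54 to 9.61 in OE/OE, and the genotypes overlapped. Litter 6 was high in both mice (WT 8.85, OE/OE 8.50). Litter 7 was low in both (7.71 and 7.65). Pair 4 held 2 very different littermates, a WT mouse at 7.99 and the OE/OE mouse at 9.61, the highest of the 14 libraries. In bulk RNA, more cells in S phase and more of these transcripts per cell cannot be told apart.

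**Figure D1:**
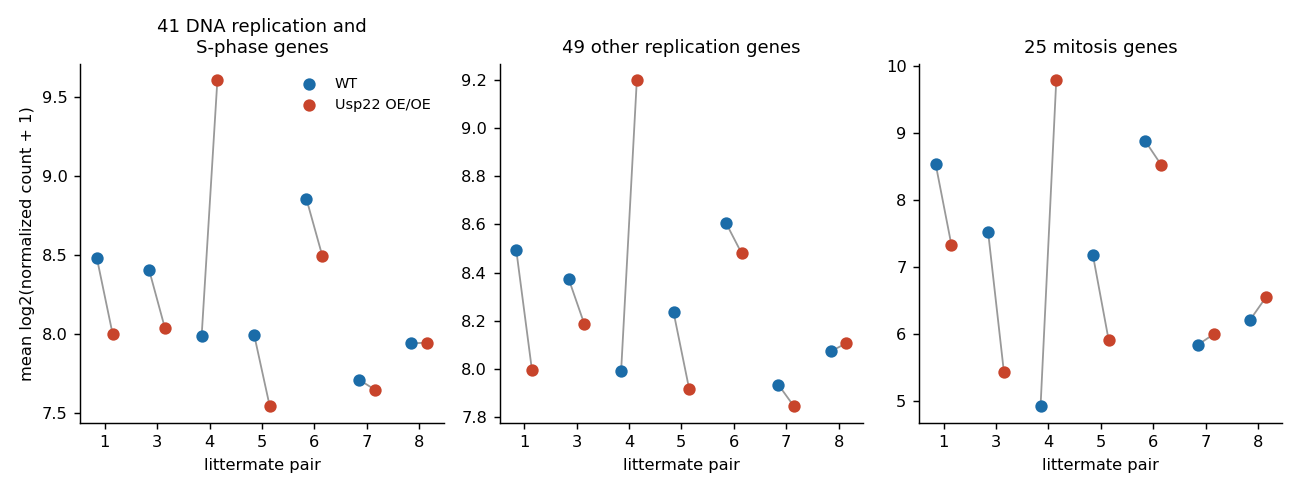
Mean log2(normalized count + 1) of each gene list (y axis, a separate scale in each panel) in the WT (blue) and Usp22 OE/OE (red) mouse of each littermate pair (x axis), with littermates joined by a line. In all 3 panels the highest library was the OE/OE mouse of pair 4, at 9.61 for the 41 members and 9.79 for the mitosis genes.

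Within pairs, the mean log2 ratio of OE/OE to WT was -0.48 in pair 1, -0.37 in pair 3, -0.46 in pair 5 and -0.36 in pair 6. It was near 0 in pair 7 (-0.06) and pair 8 (0.00). In pair 4 it was 1.62, a 3.07-fold higher level in the OE/OE mouse. Over the 7 pairs the mean was -0.01 ± 0.74 (SD, n = 7), and over the 6 pairs other than pair 4 it was -0.29 ± 0.21 (SD, n = 6). Counted gene by gene, 34 of 41 members were lower in OE/OE in pair 1, 33 in pair 3, 35 in pair 5, 38 in pair 6, 23 in pair 7 and 21 in pair 8, while of all genes 52.5%, 48.9%, 52.3%, 51.3%, 48.0% and 47.1% were lower in those pairs. In pair 4, 39 members were higher and 2, Timeless and Pcna, were lower, against 52.2% and 47.8% of all genes. The SD of the 7 litter means was 0.43, and 0.37 without litter 4. A litter mean is taken over both littermates, so differences between littermates add to this SD, and it does not measure litter differences alone.

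For 36 of the 41 members, against 27.0% of all genes, the highest library was that of the OE/OE mouse of pair 4. For 29 of the 36, the second highest library was the WT mouse of pair 6, which was also the highest WT library for 33 members (11.7% of all genes). At the other end, 19 members were lowest in the OE/OE mouse of pair 5 (19.3% of all genes). In the OE/OE mouse of pair 4, 26 members had at least 2 times the normalized count of its WT littermate, against 6.68% of all genes. The 5 members whose highest library was another one were Mcm6 and Timeless (WT of pair 6), Mcm4 (OE/OE of pair 5), Pcna (OE/OE of pair 3) and Dnmt1 (WT of pair 5).

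Other transcripts stood apart in that mouse too. Of 6 genes listed for the response to progesterone, Tnfsf11 had 712 normalized counts there and between 11.4 and 62.6 in all other libraries. Calca, which encodes calcitonin, had 12492 there, 13.3 in its WT littermate and at most 1452 elsewhere. Areg, which encodes the epidermal growth factor receptor ligand amphiregulin, had its highest level (30826), and Pgr, the progesterone receptor, its lowest (1932, against 2600 to 22560 elsewhere). Cxcl12 was also lowest there (2815, against 4643 to 8292), and Wnt4, at 4129, was below the WT littermate at 7082. The mean log2 level of these 6 genes was highest in that mouse (12.1) but lowest of all in the WT mouse of pair 6 (9.73), the next highest in S-phase level, and its correlation with the mean of the members was 0.60 over the 14 libraries and 0.08 over the 12 without pair 4. All 7 endothelial markers were lowest in that mouse, their sum being 14859 against 44909 to 94997 in the other libraries, and the summed fibroblast (61612, 3 of 7 markers lowest there) and hormone-sensing luminal markers (36491, 4 of 7) were also the lowest of the 14. The hormone-sensing luminal markers did not all go the same way. Cited1 (8325) and Foxa1 (4830) were above the WT littermate of that mouse (4314 and 4688), and Esr1 (2619) was below it (3845). No endothelial, fibroblast or hormone-sensing luminal marker was at 0 in any library. The summed pan-epithelial markers (684209) were second highest. In the WT mouse of pair 6 the summed endothelial (66357) and fibroblast (160206) markers were among the 3 highest of the 14. The part of these differences in the S-phase levels was not tested.

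**Figure D2:**
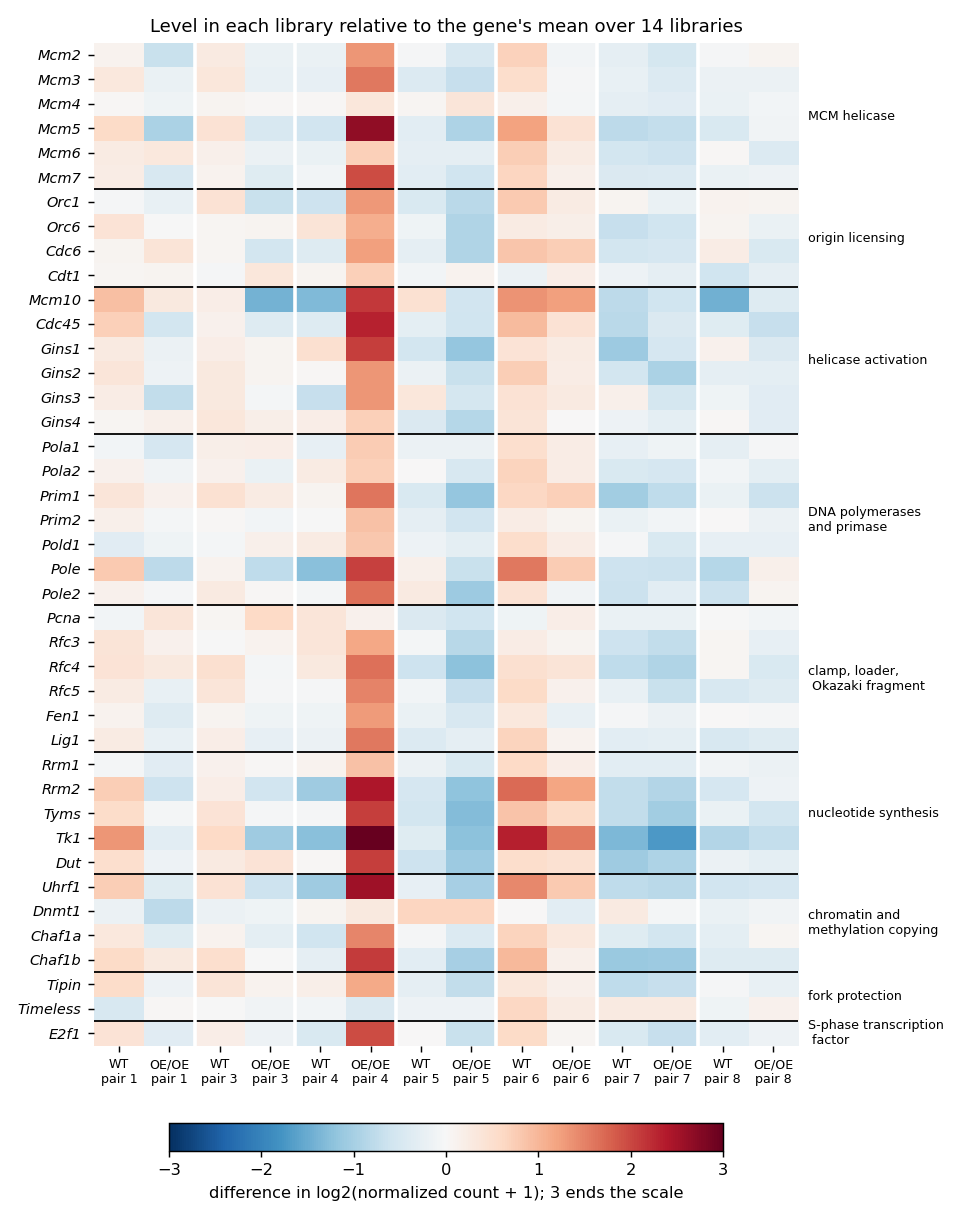
Difference of log2(normalized count + 1) from the gene's mean over the 14 libraries (colour, red above and blue below the mean) for the 41 members (rows, grouped by role) in each library (columns, littermates side by side). In the column of the OE/OE mouse of pair 4, 40 of 41 members are above their mean, Timeless being the exception, and in pair 6 it is 39 in the WT and 35 in the OE/OE mouse.

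The MCM helicase genes differed in how far they varied. Mcm5 had a lowest, median and highest value of 200, 273 and 787 normalized counts in WT and of 177, 245 and 2184 in OE/OE. The highest, in pair 4, was 9.47 times that of the WT littermate, and the groups overlapped. Mcm7 reached 2459 and Mcm3 2003 in the same mouse, 4.08 and 3.57 times the WT littermate. Mcm6, the member of the helicase with the highest mean count, had 1627, 2429 and 3954 in WT and 1546, 2100 and 3887 in OE/OE, with the WT mouse of pair 6 and the OE/OE mouse of pair 4 alike at the top. Mcm4 varied least of all 41 members, from 1655 to 2695, a 1.63-fold range. Without pair 4, Mcm2, Mcm3, Mcm5, Mcm6 and Mcm7 had log2 fold changes (OE/OE minus WT) of -0.43, -0.35, -0.57, -0.21 and -0.31, each with an unadjusted p of 0.05 or less in limma, while Mcm4 was at -0.02 ± 0.08 (SE) and did not pass.

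Of the licensing genes, Cdt1 (ENSMUSG00000006585.3, chr8:122568015-122573554, plus strand) was the only member that passed the threshold for genotype with all 7 pairs. Its lowest, median and highest values were 456, 656 and 725 normalized counts in WT and 568, 748 and 1124 in OE/OE. The OE/OE mouse was the higher in 6 of 7 pairs, although the ranges of the genotypes overlapped. The WT mean was 638 ± 92.2 and the OE/OE mean 773 ± 192 (SD, n = 7). The log2 fold change was 0.26 ± 0.10 (SE, unadjusted p = 0.0286 in limma, adjusted p = 1.00, exact sign-flip permutation p = 0.0469). Without pair 4 it was 0.19 ± 0.09 and no longer passed (adjusted p = 0.598). It also did not pass without pair 3, 6 or 8, or with no block, with log2 fold changes of 0.24, 0.23, 0.25 and 0.26. Nor did Cdt1 pass in a paired t test on normalized counts, the type of test used in the study. Over the 12 libraries without pair 4, Cdt1 also stood apart from the other members, with a correlation of 0.16 with their mean. Over all 14 libraries the correlation was 0.56. Orc1, Orc6 and Cdc6 followed the common pattern, and in the OE/OE mouse of pair 4 they were at 3.95, 1.64 and 3.11 times the WT littermate.

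Among the genes of helicase activation, Cdc45 was at 421 normalized counts in the OE/OE mouse of pair 4 and between 47.8 and 163 in all other libraries. Mcm10 was at 250 in that mouse and as low as 20.2 in the WT mouse of pair 8, a 12.4-fold range. The GINS genes, which encode the 4 subunits of 1 complex, did not vary alike. Gins1 spanned a 9.78-fold range and Gins4, the GINS gene with the highest mean count, a 2.96-fold range, with 234, 332 and 417 as the lowest, median and highest values in WT and 175, 319 and 518 in OE/OE. Gins3 had 23.9, 46.0 and 53.7 in WT and 23.3, 30.9 and 101 in OE/OE. The OE/OE mouse had the lower value of Gins3 in all 6 pairs other than pair 4, and its log2 fold change was -0.17 ± 0.34 (SE) with all pairs and -0.53 ± 0.18 (adjusted p = 0.534) without pair 4. Gins3 had the smallest litter share of all members, 20.0%, but its mean count was low, 42.5, so counting error weighs on these values.

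The polymerase and primase genes included some of the steadiest members. Pola1, the catalytic subunit of polymerase alpha, had 399, 427 and 690 normalized counts as the lowest, median and highest in WT and 339, 472 and 816 in OE/OE, a 2.41-fold range over all libraries. Pola2, its accessory subunit, had 275, 407 and 600 in WT and 265, 325 and 611 in OE/OE, and was lower in the OE/OE mouse in 6 of 7 pairs. Its log2 fold change, -0.19 ± 0.12 (SE, exact sign-flip permutation p = 0.172), was the lowest of the 41 with all pairs, and it was -0.30 ± 0.09 without pair 4 (adjusted p = 0.528). Pole, the catalytic subunit of polymerase epsilon, varied far more. It was at 36.2 in the WT mouse of pair 4 and at 369 in its OE/OE littermate. Pold1 and Prim2 stayed within a 2.39-fold and a 2.76-fold range, and Prim1 and Pole2 spanned 6.88-fold and 6.93-fold ranges.

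Pcna was the member with the highest level and did not follow the others. It had 3971, 5026 and 6881 normalized counts in WT and 3494, 5830 and 8109 in OE/OE, and in pair 4 the OE/OE mouse (5830) was below the WT littermate (6881). Its log2 fold change was 0.12 ± 0.11 (SE) with all pairs and 0.18 ± 0.11 without pair 4, and passed in neither fit. The clamp loader genes Rfc3, Rfc4 and Rfc5 followed the common pattern, with 4.03-fold, 7.38-fold and 4.50-fold ranges, and so did Fen1 (3.36-fold) and Lig1 (4.25-fold). Rfc4 was lower in OE/OE in all 6 pairs other than pair 4, with a log2 fold change of -0.33 ± 0.12 without it (adjusted p = 0.543). Per kilobase of exon, Pcna had the highest mean level of the members, 2270 normalized counts per kb (1456 to 3379 over the 14 libraries), above Dnmt1 at 723 (410 to 1094), Mcm4 at 590 (461 to 751) and Mcm6 at 528 (331 to 847). The ranges of these last 3 overlapped. The lowest were Mcm10 at 9.89 (2.62 to 32.5), Pole at 10.1 (3.25 to 33.1) and Orc1 at 10.9 (5.58 to 25.1), also with overlapping ranges.

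The nucleotide synthesis genes showed the widest differences between mice. Tk1 (ENSMUSG00000025574.13, chr11:117815526-117826092, minus strand), which encodes the thymidine kinase of S phase, spanned a 28.5-fold range, the widest of the 41, and its details were chosen for description after its values were seen. It had 34.6, 69.1 and 450 normalized counts as the lowest, median and highest in WT and 26.3, 54.3 and 749 in OE/OE. The 3 highest mice were the OE/OE mouse of pair 4 (749, against 37.1 in its WT littermate), the WT mouse of pair 6 (450) and the OE/OE mouse of pair 6 (265), and both mice of pair 7 were low (34.6 and 26.3). Its log2 fold change was -0.12 ± 0.63 (SE) with all pairs and -0.85 ± 0.24 (adjusted p = 0.528) without pair 4. Tyms, thymidylate synthase, had the smallest p of the members without pair 4, with a log2 fold change of -0.45 ± 0.10 (adjusted p = 0.521) and the OE/OE mouse lower in all 6 pairs. Rrm2, the regulated subunit of ribonucleotide reductase, spanned a 12.5-fold range. Its partner Rrm1, with 1471, 1763 and 2764 in WT and 1348, 1621 and 3397 in OE/OE, spanned 2.52-fold. Dut, which removes dUTP, was at 1175 in the OE/OE mouse of pair 4 and at most 399.7 elsewhere.

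**Figure D3:**
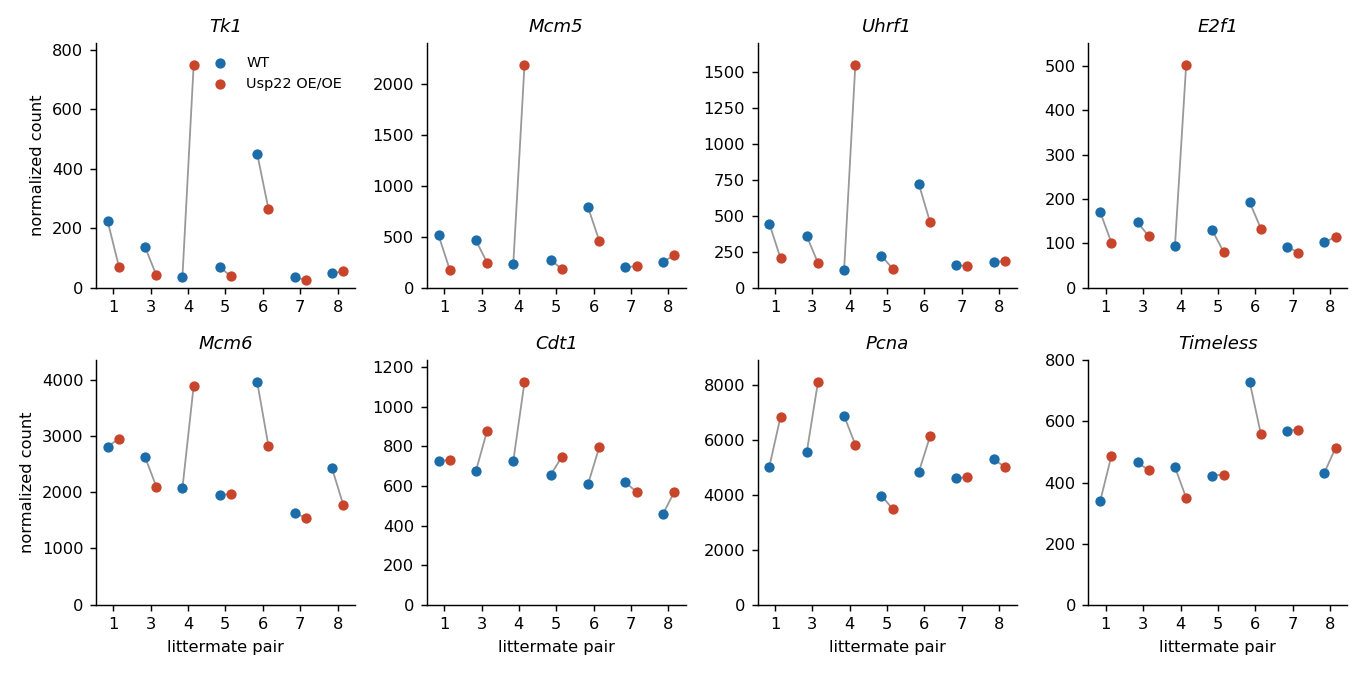
Normalized count (y axis from 0, a separate scale for each gene) of 8 members in the WT (blue) and Usp22 OE/OE (red) mouse of each littermate pair (x axis). Mcm5, Uhrf1 and E2f1 show the isolated high value of the OE/OE mouse of pair 4, at 2184, 1546 and 503. Tk1 was also highest there, at 749, but reached 450 in the WT mouse of pair 6. Mcm6 was as high in the WT mouse of pair 6, and Pcna and Timeless were lower in the OE/OE than in the WT mouse of pair 4.

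Of the genes that copy chromatin and DNA methylation, Uhrf1 and Dnmt1 act in 1 step, since UHRF1 recruits the methyltransferase DNMT1 to newly copied DNA, but their transcripts did not move together. Uhrf1 had 125, 221 and 718 normalized counts in WT and 132, 187 and 1546 in OE/OE, and the OE/OE mouse of pair 4 was at 12.4 times its WT littermate. Dnmt1 had 4533, 5182 and 8074 in WT and 3025, 4798 and 8068 in OE/OE. The 2 mice of pair 5 were the highest for Dnmt1, 8074 in WT and 8068 in OE/OE, although litter 5 was among the lowest for most members. Over the 12 libraries without pair 4, the correlation with the mean of the other members was 0.97 for Uhrf1 and -0.39 for Dnmt1. Chaf1a and Chaf1b, 2 subunits of the chromatin assembly factor, were at 4.18 and 5.19 times the WT littermate in the OE/OE mouse of pair 4.

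The 2 partners of the fork protection complex differed in the same way. Tipin reached 645 in the OE/OE mouse of pair 4, 1.96 times its littermate, while Timeless had 339, 451 and 729 normalized counts in WT and 350, 487 and 573 in OE/OE and was at 350 in that mouse, below the WT littermate at 451. E2f1, the transcription factor of the list, had 92.5, 129 and 193 in WT and 78.9, 114 and 503 in OE/OE. Outside the OE/OE mouse of pair 4 its highest OE/OE value was 133. Its log2 fold change was 0.01 ± 0.35 (SE) with all pairs and -0.39 ± 0.14 (adjusted p = 0.543) without pair 4. Over the 12 libraries without pair 4, 32 of the 41 members had a correlation above 0.7 with the mean of the other members, and the 5 below 0.5 were Mcm4 (0.26), Cdt1 (0.16), Pcna (0.30), Dnmt1 (-0.39) and Timeless (0.19). These libraries share litters and a common scaling, and the correlations are given as a description.

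For genotype, tested over all genes with limma and the littermate pair as a block, an unadjusted p of 0.05 or less was reached by 1 of 41 members with a higher level in OE/OE (Cdt1) and by 0 with a lower level, against 1.95% and 1.85% of all genes. After Benjamini-Hochberg adjustment 0 members passed 0.05, against 0.0124% of all genes, and the lowest adjusted p of a member was 1.00. The median log2 fold change was -0.01 over the members and -0.00 over all genes, with 20 members above 0 and 21 below. Without pair 4, the pair whose ratio was opposite in sign and largest, 20 members reached that threshold with a lower level in OE/OE and 0 with a higher level, against 3.98% and 4.49% of all genes. The 20 were Tyms, Mcm3, Mcm2, Tk1, Uhrf1, Gins2, Pola2, Rfc5, Fen1, Gins3, Mcm7, Rfc4, E2f1, Chaf1b, Mcm5, Rrm2, Rrm1, Tipin, Gins4 and Mcm6. The median was then -0.29 over the members, with 38 below 0, and -0.00 over all genes. No member passed after adjustment (lowest adjusted p = 0.521). Orc1, Gins2, Gins3, Pola2, Rfc4, Fen1 and Tyms were lower in OE/OE in each of the 6 pairs, 7 of 41 against 2.83% of all genes. The ranges of the 2 genotypes overlapped for all 41 members, and they did not overlap for 0.0434% of all genes.

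For litter, the same fit gave an adjusted p under 0.05 for 4 of 41 members (9.76%), against 33.3% of all genes. These were Dnmt1 (adjusted p = 0.0222), Rfc4 (0.0366), Prim1 (0.0451) and Orc6 (0.0457). Without pair 4, 23 members passed (56.1%), against 39.6% of all genes, the smallest adjusted p being that of Tyms, 0.00230. As a description of the spread, the sum of squares of each gene was divided between litter, genotype and the remainder, litter taking 6 of 13 degrees of freedom. The median litter share was 62.0% over the members and 73.9% over all genes, the median genotype share 0.399% and 1.43%, and the median remainder 38.0% and 21.9%. Dnmt1 had the largest litter share, 83.4%. Without pair 4 the members' median shares were 76.6% for litter, 11.3% for genotype and 14.4% for the remainder, against 75.2%, 2.83% and 18.4% over all genes.

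**Figure D4:**
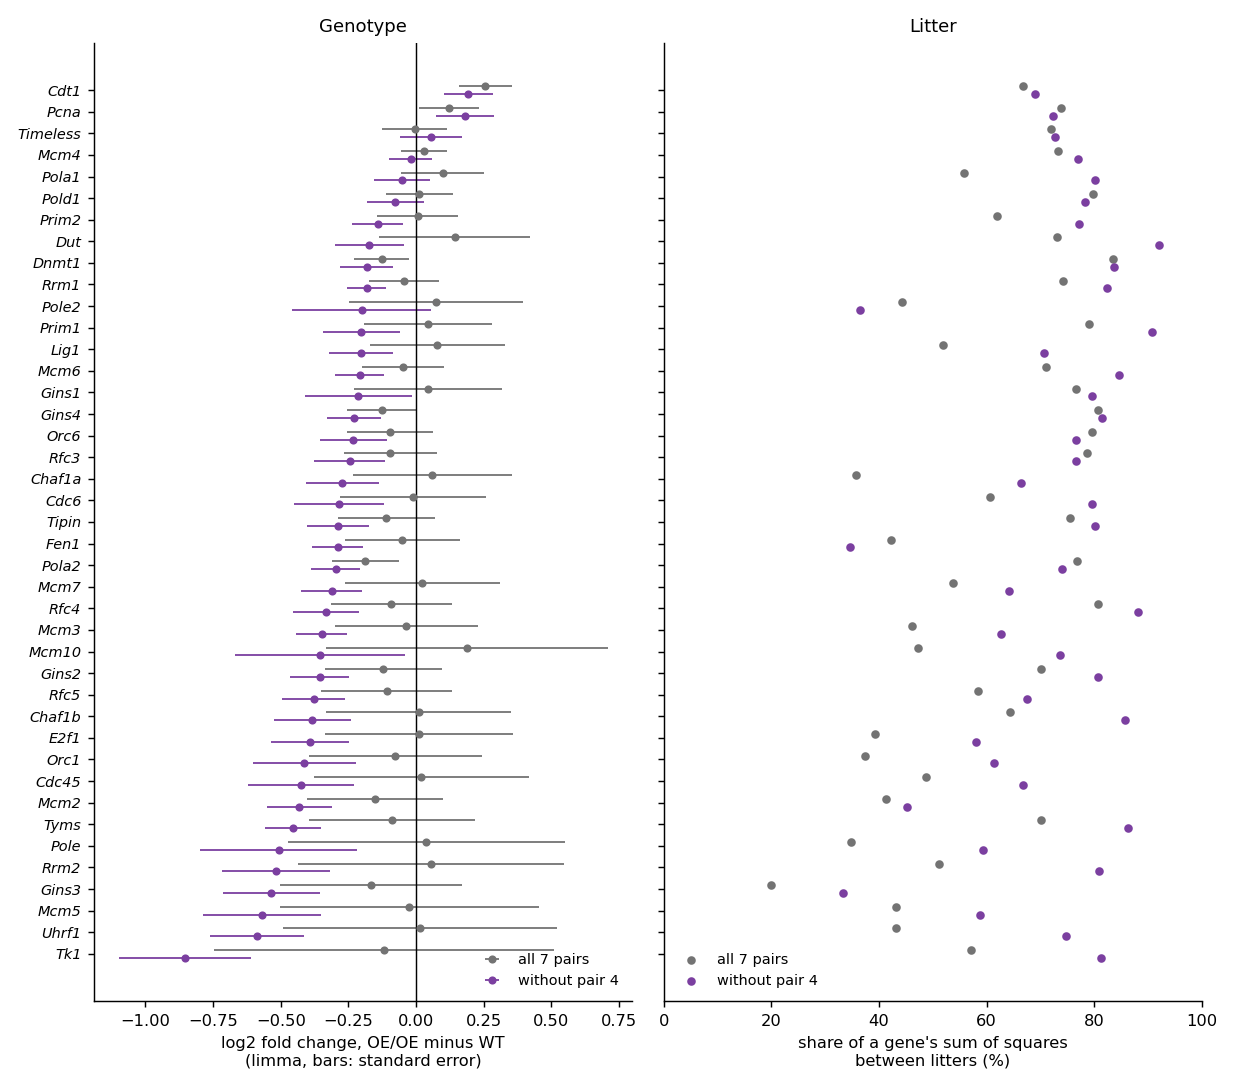
Left, limma log2 fold change of OE/OE over WT (x axis, bars are standard errors) for the 41 members (rows, ordered by the value without pair 4). Right, share of each gene's sum of squares that lay between litters (x axis, percent). Grey points use all 7 pairs and purple points leave out pair 4. Without pair 4, 38 members lie below 0 on the left with shorter bars, and most litter shares on the right are larger.

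Genes of neighbouring processes, from lists that hold none of the 41, were set beside them. Of 49 other replication genes, 1 (E2f7, a repressor of the E2F family) was higher in OE/OE and 0 were lower with all pairs, E2f7 having a log2 fold change of 0.31 ± 0.14 (SE, exact sign-flip permutation p = 0.0625). Without pair 4, 4 were lower (Pole3, Dna2, Asf1b and Dctpp1) and 0 higher. Of 25 mitosis genes, 1 was lower with all pairs. This was Aurka, a spindle kinase, with a log2 fold change of -0.39 ± 0.12 (exact sign-flip permutation p = 0.0469) and a lower value in the OE/OE mouse in 6 of 7 pairs. Without pair 4, 13 mitosis genes were lower and 0 higher. Of all genes, 1.85% were lower and 1.95% higher with all pairs, and 3.98% were lower and 4.49% higher without pair 4. The mitosis genes varied over a wider range than the S-phase genes. Their mean log2 level was 4.93 in the WT mouse of pair 4 and 9.79 in its OE/OE littermate, a 29.1-fold ratio, and in pairs 1, 3 and 5 the OE/OE mouse was lower by log2 ratios of -1.20, -2.08 and -1.26. In pair 6 the ratio was -0.35, and in pairs 7 and 8 it was slightly above 0, at 0.16 and 0.33.

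Among the genes outside the list whose levels were most like the mean of the members over the 14 libraries were Mad2l1 (Pearson r = 0.975, and 0.963 over the 12 libraries without pair 4), Asf1b (0.973 and 0.953), Dynlt1a (0.968 and 0.933), Traip (0.966 and 0.921), Nrm, Bard1, Rpa2, Chtf18 and Trip13. Mad2l1, which encodes a spindle checkpoint protein, was at 967 normalized counts in the OE/OE mouse of pair 4 and at 125 in its WT littermate.

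Some member values carry limits from counting. Whether strand was used in counting is not given in the sources used here, and 14 members share exon bases with another annotated gene, 7 of them over 10%. The share was 84.2% for Fen1 (with Tmem258 and the antisense gene Gm10143), 67.3% for Gins2 (with Gse1) and 52.5% for Chaf1a (with Ubxn6), so their counts are uncertain. Pcna and Tyms have pseudogenes that carry their names, and fragments of near-identical copies could have been split or lost.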

How the data were processed

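RNA from mammary epithelial cells of 14 mice was sequenced as paired reads of 75 bases. The authors mapped the reads to mm10 with TopHat2 2.0.10, counted fragments per GENCODE M21 gene with HTSeq 0.6.0, retained a gene when 7 or more samples reached 10 fragments, and scaled each library by its DESeq 1.18.0 size factor. The deposited signal is therefore a normalized count per gene and library, linear and without pooling. In each library 100% of the values were whole multiples of 1 fragment (tolerance 0.01), so fragments were recovered. The depth of 20125106 to 41835978 fragments sets the counting error, which is largest for members with few counts such as Gins1, Gins3 and Orc1.

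The 41 members, their roles and the other gene lists were chosen with earlier results of these data known, so no p-value over a list is given. Values with a rule for naming were the member with the highest mean count in each role, members with an unadjusted p of 0.05 or less, and the extremes of pair ratio and litter share. Other members were named after their values were seen. The groups were the genotypes in the labels, and pairs were the littermates by the labels' pair numbers and the study's methods. Deviations from genotype means correlated between same-numbered libraries (0.171 to 0.748, median 0.522) and the 42 other combinations spanned -0.538 to 0.634 (median -0.151).

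The test was limma 3.58.1 (trend) in R 4.3.3 on log2(normalized count + 1), which understates changes of low genes, with the pair as a block, and an F test over the 6 litter coefficients, both with Benjamini-Hochberg adjustment over 16124 genes. The unadjusted threshold of 0.05 follows the study. For single members, the signs of the 7 pair ratios were flipped exactly (128 patterns, two-sided, smallest p 0.0156). Alternatives were pseudocounts of 0.1 and 10, a minimum mean of 50, no block, limma without trend, quantile normalization and array weights. Others were edgeR 4.0.16 and DESeq2 1.42.0 on fragments, and each pair left out. A paired t test of each gene alone was run on normalized counts without logs. The study also used a paired t test on normalized counts. On simulated data with 200 of 16124 genes changed by a log2 genotype difference of 1, limma recovered 97.0% at the unadjusted threshold and 71.0% after adjustment. For litter differences of that size it recovered 96.5% and 74.0%. The changed genes were drawn from all genes, with independent noise and no pair set apart. In the real data the pair log2 ratios had a median SD of 0.80 over the members and 0.36 over all genes. The recovered shares therefore cannot be taken as those for the members. Positions came from GENCODE M21 (GRCm38), to which all 16124 identifiers matched. The values of 1 gene outside the list are not reported here.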

Additional observations from a re-analysis of the deposited data

Results flagged for a closer look

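Among the values of 46 groups of 7 mice, 8 held 1 mouse far from the others by Dixon's test. For independent groups, chance gives about 1 in 20, or 2.3 groups. These groups share mice and genes, and some hold mean log2 levels and others normalized counts. The 8 therefore cannot be weighed against 2.3 and are given as a description. Of the 8, 6 were the OE/OE mouse of pair 4. It was the highest OE/OE mouse for the mean log2 level of the MCM helicase genes (11.2, next 9.88), of the clamp, clamp loader and Okazaki fragment genes (10.1, next 8.996) and of the chromatin and methylation copying genes (10.51, next 9.14), and for the normalized counts of Rrm1 (3397, next 2103), E2f1 (503, next 133) and Gins3 (101, next 47.3). The OE/OE mouse of pair 4 was also the highest OE/OE mouse for the mean log2 level of all members (9.61, next 8.50). The same held for the nucleotide synthesis genes (10.3, next 8.96) and the mitosis genes (9.79, next 8.53). These means were not among the 8. The WT mouse of pair 6 was far above the other WT mice for Rrm1 (2764, next 2013). The WT mouse of pair 8, a shallow library, was far below the other WT mice for Cdt1 (456, next 609).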

How the results depend on the processing

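The count of members that passed for genotype, 1 with the littermate pair as a block, was 0 without the block and 0 in a paired test of each gene alone. It was 8 with array weights (1 higher and 7 lower, against 5.77% and 4.85% of all genes). These weights were lowest, 0.243, for both libraries of pair 4. Leaving out 1 pair at a time gave 0 to 20, the 20 without pair 4, and no pair other than pair 4 gave more than 1. With pair 4 left out, alternatives chosen after seeing the data gave 20 with edgeR, 19 with DESeq2 and 3 with no block. All were lower in OE/OE, against 4.33%, 3.56% and 0.713% of all genes. The count for litter, 4, was 24 with array weights, 9 with edgeR, 24 with DESeq2 and, in a comparison chosen after seeing the data, 1 in limma without trend. Of all genes, 47.8%, 33.4%, 49.4% and 28.7% passed in these settings. The members' count for litter lay between 0 and 23 with 1 pair left out (0 without pair 5, 23 without pair 4). Without pair 4 it was 27 with edgeR and 32 with DESeq2. Of all genes, 20.8% passed without pair 5. Without pair 4 the share was 39.6% in limma, 40.1% with edgeR and 50.2% with DESeq2. The cause of these changes was not tested. The mean log2 ratio of the members was between -0.29 and 0.06, and the median litter share between 55.0% and 76.6%, with 1 pair left out. Some log2 fold changes near 0 changed sign: Pola1 with array weights (-0.0038), Timeless with quantile normalization (0.0194), and E2f1 with array weights (-0.27) and edgeR (-0.0406). With 1 pair left out, Mcm6 lay between -0.21 and 0.0239, Pola1 between -0.0517 and 0.18, Rrm1 between -0.18 and 0.0121, Timeless between -0.0933 and 0.0576 and E2f1 between -0.39 and 0.13. Depth limits members with few counts, Gins1 at 20.5 in its lowest library for example.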

Other observations

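Milk and lymphocyte transcripts also differed between mice. Csn1s1, an early casein, was at 423 normalized counts in the OE/OE mouse of pair 4 and 3.53 in its WT littermate, and at 507 in the OE/OE mouse of pair 3, whose S-phase level was not high. Lalba, which encodes a whey protein made at full secretion, was lowest in the OE/OE mouse of pair 4 (63.3, against 85.3 to 1235 elsewhere). The summed lymphocyte markers were highest in the WT mouse of pair 1 (2239, of which Cd79a, a B cell receptor chain, gave 676).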
